A study of Rattus norvegicus with 12 samples.

Results

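Fatty acid oxidation and ketogenesis were followed through 33 genes in rats with a thermal injury (burn) and sham-treated rats. The genes were taken as every member of a list of enzymes and regulators whose probe sets, the groups of probes that read 1 transcript on an Affymetrix RAE230A array, were annotated to that gene alone. They are 33 of the 10411 genes measured and hold 39 of the 15866 probe sets, and 6 of them have more than 1 probe set. 17 act in mitochondria, 6 in peroxisomes, 3 are Cyp4a enzymes, and 7 activate or hydrolyse fatty acids or regulate the pathway. A further 2 probe sets that also name a second gene (Acot2 with Acot1, and Eci2 with Eci3) were left out.

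The series holds 12 samples, 3 each at days 1, 2, 4 and 7, and each sample pairs RNA of an injured rat (channel 2) with RNA of a sham control (channel 1). The 9 samples of days 2, 4 and 7 were used, because the day 1 identifiers did not stand for the same probe sets. The labels do not give the tissue, strain, age or extent of the burn, nor whether replicate samples were taken from different animals, and p-values here measure only the spread between these samples. Each value is a log2 ratio of array signals, 1 per gene and sample, relative to the median of its array. Which channel was divided by which is not stated. Injury over sham is likely from the order of the channels, and values above 0 are read as higher in injured rats throughout. In such bulk samples, fewer cells of a type and less RNA per cell cannot be told apart.

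Long-chain fatty acids are first joined to coenzyme A, carried into mitochondria by the carnitine system, and shortened by cycles of dehydrogenation, hydration, dehydrogenation and thiolysis (beta-oxidation). In liver the acetyl-CoA formed can be turned into ketone bodies, which other tissues burn during fasting. Peroxisomes shorten very long and branched chains, Cyp4a enzymes oxidise the far end of the chain (omega-hydroxylation), and many of these genes are targets of the lipid-sensing nuclear receptor encoded by Ppara.

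None of the 33 genes passed the threshold, an adjusted p under 0.05 in limma over all 10411 genes, at day 2, day 4 or day 7. Of all genes, 0.134% passed at day 2, 0% at day 4 and 0.0288% at day 7. The smallest adjusted p of a member was 0.323 at day 2, 0.237 at day 4 and 0.138 at day 7. At an unadjusted p under 0.05, 4 of 33 members stood out at day 2 (12.1%, against 8.41% of all genes), 7 at day 4 (21.2% against 10.5%) and 10 at day 7 (30.3% against 12.4%). These were 3 higher and 1 lower at day 2 (4.66% and 3.76% of all genes), 4 higher and 3 lower at day 4 (6.13% and 4.38%), and 4 higher and 6 lower at day 7 (5.45% and 6.93%). The members' values are therefore given as ratios that did not pass the test. Cpt1a, Acadsb, Acox3 and Acot12 had their lowest mean ratios at day 4. Acaa2, Decr1, Echs1 and Bdh1 had their lowest mean ratios at day 7.

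**Figure D1:**
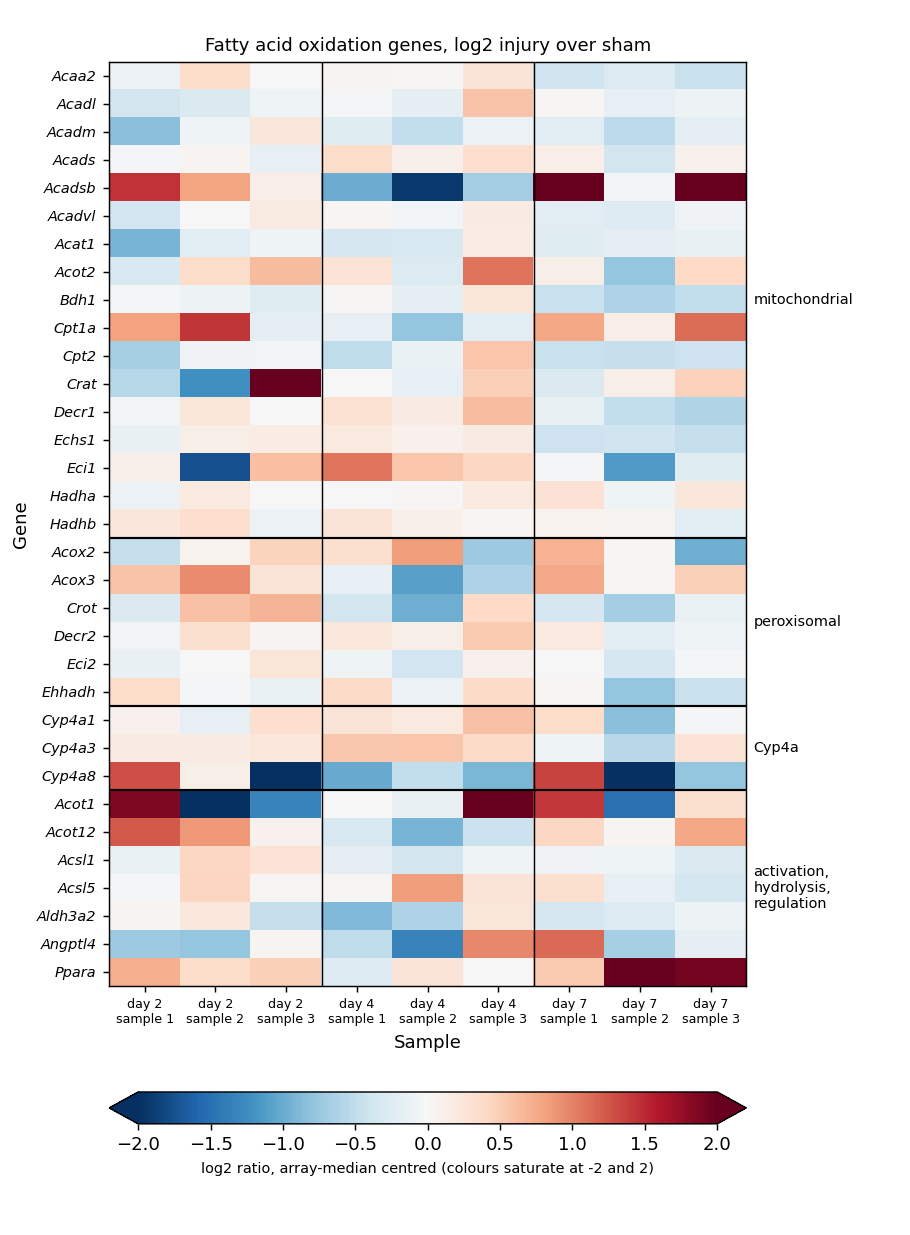
Log2 ratios of injury over sham for the 33 genes (rows, by group) in the 9 samples (columns), blue below 0 and red above 0, with colours saturating at -2 and 2. Most cells are pale, and Acadsb, Acot1, Crat, Cyp4a8 and Ppara hold the darkest cells.

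By group, the median ratio of the 17 mitochondrial genes was 0.02 at day 2 (9 above 0), 0.10 at day 4 (12 above 0) and -0.19 at day 7 (4 above 0). The median of the 6 peroxisomal genes was 0.09 at day 2 (6 above 0), 0.01 at day 4 (3 above 0) and -0.10 at day 7 (1 above 0). The 3 Cyp4a genes had medians of 0.09, 0.35 and -0.16 on these days. The medians of all genes were 0.00, 0.01 and -0.01. Single samples turned the sign of some of these: the Cyp4a median of day 7 was 0.173 without sample 2, the mitochondrial median of day 2 was -0.066 without sample 2 and -0.017 without sample 3, and that of day 4 was -0.008 without sample 3. The peroxisomal median of day 4 was -0.046 without sample 1 and -0.047 without sample 3, and that of day 7 was -0.294 without sample 1. The mitochondrial median was below 0 in each sample of day 7 (-0.15, -0.27 and -0.15), while the samples of day 4 were mixed, at 0.02, -0.14 and 0.24. All 3 samples were below 0 at day 7 for 12 of the 33 genes (36.4%), against 18% of all genes, and above 0 at day 4 for 11 (33.3%), against 18.3% of all genes. Other counts were nearer those of all genes: 5 members were above 0 in all samples of day 2 (13.8% of all genes) and 4 below 0 (13.1%), 7 were below 0 in all of day 4 (16.2%), and 4 were above 0 in all of day 7 (15.6%).

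Other gene lists were set beside these medians. The 84 nuclear-encoded respiratory chain genes, which make ATP from the electrons that oxidation releases, had medians of 0.05, 0.31 and -0.25 at days 2, 4 and 7, with 77 above 0 at day 4 and 76 below 0 at day 7. In sample 2 of day 4 their median was 0.29, where that of the mitochondrial members was -0.14. The 42 cytosolic ribosomal protein genes had medians of 0.02, 0.29 and -0.17. For RNA integrity, the log2 ratio of actin near the 5′ end of the message was subtracted from that near the 3′ end. A value away from 0 means that the injured and sham RNA of a sample differed in this balance. The actin values were -0.879, -0.436 and -0.88 in samples 1 to 3 of day 7, -0.786, -0.313 and -0.0614 at day 2, and between -0.35 and 0.384 at day 4. For GAPDH they were -0.39, -0.21 and -0.795 at day 7, -0.419, -0.186 and 0.109 at day 2, and between -0.0808 and 0.309 at day 4. The values of days 2 and 7 overlapped for both genes. For both genes, every value of day 7 lay below every value of day 4. This balance therefore cannot be told apart from the day when days 4 and 7 are compared. The 20 exocrine pancreas markers measured of 23 listed had medians of 0.03, 2.76 and 1.53 in samples 1 to 3 of day 4 and between -0.20 and 0.43 in the other 6 samples. The 13 hepatocyte markers measured had medians of 0.14, -0.13 and -0.12 by day, and the 10 macrophage markers 0.02, 0.24 and -0.02. The 4 red cell markers had medians of 0.03, 0.72 and 0.32, the 10 stellate cell and matrix markers 0.13, -0.04 and -0.20, the 12 skeletal muscle markers -0.17, -0.13 and -0.17, and the 4 adipocyte markers -0.25, -0.01 and 0.19. The part of these lists in the members' ratios was not tested.

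**Figure D2:**
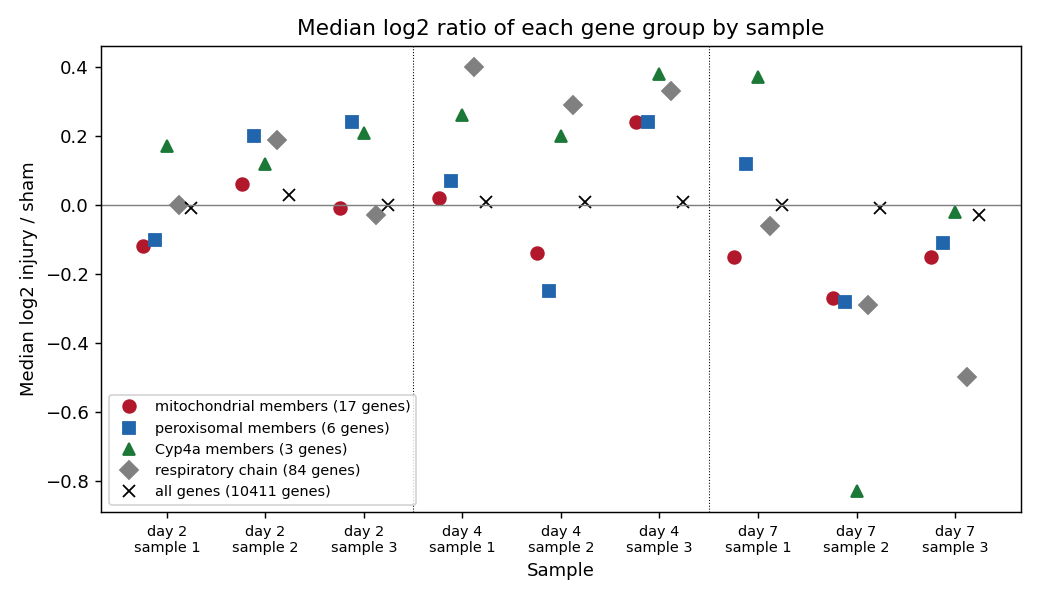
Median log2 ratio (vertical axis) of the mitochondrial, peroxisomal and Cyp4a genes, of 84 respiratory chain genes and of all genes in each sample (horizontal axis), 1 symbol per list and sample. The mitochondrial median lies at -0.15, -0.27 and -0.15 in the samples of day 7, and the respiratory chain median lies between 0.29 and 0.40 in those of day 4.

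Among the carnitine enzymes, Cpt1a, which links long-chain acyl groups to carnitine and is the main control point of their entry into mitochondria, was at 0.80, 1.43 and -0.20 in samples 1 to 3 of day 2. It was at -0.17, -0.78 and -0.23 at day 4 and at 0.77, 0.13 and 1.11 at day 7. All samples of day 7 lay above all samples of day 4, while sample 3 of day 2 fell within the day 4 range. The mean was 0.68 ± 0.82 (SD, n = 3) at day 2, -0.39 ± 0.34 at day 4 and 0.67 ± 0.50 at day 7, and the adjusted p from limma was 0.515, 0.674 and 0.33. Both of its probe sets had their lowest mean at day 4, at 0.99, -0.51 and 0.99 for the brighter one and 0.36, -0.28 and 0.36 for the other. Cpt2, which returns the acyl group to coenzyme A inside the mitochondrion, was at -0.44, -0.46 and -0.42 at day 7. These 3 values lay closer together than its samples of day 4, which ran from -0.51 to 0.56, and the adjusted p at day 7 was 0.358. Crat, the carnitine acetyltransferase, had no common sign on any day and ran from -1.22 to 2.25 within day 2.

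The acyl-CoA dehydrogenases, which start each cycle of beta-oxidation, are sorted by chain length. Acadvl, for very long chains, had day means of -0.07 ± 0.29, 0.05 ± 0.11 and -0.19 ± 0.10 (SD, n = 3). Acadl, for long chains, had -0.24 ± 0.14, 0.11 ± 0.40 and -0.08 ± 0.10, and Acads, for short chains, -0.04 ± 0.12, 0.27 ± 0.14 and -0.05 ± 0.27. These 3 genes stayed within 0.57 of 0 in all 9 samples. Acadm, for medium chains, was at -0.83, -0.08 and 0.22 at day 2, at -0.25, -0.50 and -0.12 at day 4, and at -0.22, -0.52 and -0.20 at day 7. It was below 0 in 8 of 9 samples, with a mean over the 3 days of -0.28 (SE 0.10, adjusted p = 0.355).

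Acadsb acts on short branched chains, mainly in the breakdown of isoleucine, and varied far more than the other dehydrogenases. It was at 1.44, 0.79 and 0.13 at day 2, at -1.0, -1.93 and -0.70 at day 4, and at 2.5, -0.06 and 3.18 at day 7. Every sample of day 4 was below every sample of the other days, and sample 2 of day 7 lay apart from the other samples of that day. The day means were 0.79 ± 0.65, -1.21 ± 0.64 and 1.87 ± 1.71 (SD, n = 3), with adjusted p of 0.715, 0.405 and 0.18. Without sample 2 of day 7 the day 7 ratio was 2.84 and passed (adjusted p = 0.0197), so 1 sample decided that call.

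For Acadsb and Ppara, the members farthest above 0 at day 7, the pair of whole numbers behind each ratio could be recovered in all 9 samples. These numbers are signals in lowest terms, so an original signal may be a multiple of the number given, and with numbers up to 20000 between 11.7% and 13.4% of ratios shifted at random also gave a pair. For Acadsb the injury numbers of day 7 were 3159, 6533 and 4083, and the sham numbers 550, 6495 and 403. The low sham numbers of samples 1 and 3 set those samples apart, since sham numbers in the other 7 samples were between 3371 and 12949. Injury numbers of Acadsb ran from 3159 to 9397 over all 9 samples.

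The later steps of the mitochondrial cycle differed in how far their ratios spread. Hadha and Hadhb, the subunits of the trifunctional protein that carries out the last 3 steps on long chains, stayed near 0. Hadha was at -0.12, 0.20 and -0.01 at day 2, at 0.00, 0.02 and 0.20 at day 4, and at 0.29, -0.08 and 0.23 at day 7, a range of 0.41 over 9 samples and the smallest of the 33 genes. Hadhb had day means of 0.15 ± 0.24, 0.13 ± 0.11 and -0.03 ± 0.16 (SD, n = 3). Echs1 and Acaa2, which act on shorter chains, had their lowest means at day 7, while Hadh, the short-chain dehydrogenase of the step between them and not among the 33 genes, was at -0.13 (adjusted p = 0.879). Echs1, the short-chain enoyl-CoA hydratase, was at -0.15, 0.11 and 0.15 at day 2, at 0.20, 0.08 and 0.16 at day 4, and at -0.42, -0.40 and -0.47 at day 7. Its samples of day 7 lay below all 6 others, with a mean of -0.43 ± 0.03 (SD, n = 3; 1.35-fold lower, adjusted p = 0.205). Acaa2, the thiolase of the last step, was at -0.12, 0.37 and -0.01 at day 2, at 0.06, 0.03 and 0.25 at day 4, and at -0.40, -0.27 and -0.44 at day 7. Here too all samples of day 7 were below the 6 others, with a mean of -0.37 ± 0.09 (1.29-fold lower, adjusted p = 0.235).

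Auxiliary enzymes for unsaturated chains gave ratios of the same order. Decr1, the mitochondrial dienoyl-CoA reductase, was at -0.06, 0.24 and -0.00 at day 2, at 0.31, 0.17 and 0.61 at day 4, and at -0.15, -0.49 and -0.60 at day 7. Its samples of day 4 and of day 7 did not overlap, with means of 0.36 ± 0.23 (adjusted p = 0.33) and -0.41 ± 0.23 (SD, n = 3; adjusted p = 0.222). Eci1, an enoyl-CoA isomerase, had means of -0.35 ± 1.25, 0.68 ± 0.34 and -0.47 ± 0.58. Its probe sets disagreed in sign over the mean of the 3 days, at 0.22 (unadjusted p = 0.0457) for the brighter one and -0.31 (unadjusted p = 0.495) for the dimmer one, and also in day 7 minus day 2, at -0.58 (unadjusted p = 0.0317) and 0.35 (0.75). The brighter Eci1 probe set was at 0.36, 0.35 and 0.98 in samples 1 to 3 of day 4 and at 0.08, -0.64 and -0.18 at day 7. Acot2, a mitochondrial thioesterase that frees fatty acids from coenzyme A, was between -0.77 and 1.09 over the 9 samples.

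Of the enzymes of ketone body metabolism, Bdh1, which interconverts acetoacetate and beta-hydroxybutyrate, had the smallest p of all members at day 7. It was at -0.02, -0.10 and -0.24 at day 2, at 0.02, -0.20 and 0.24 at day 4, and at -0.44, -0.61 and -0.50 at day 7. All samples of day 7 were below all others, and the mean of -0.52 ± 0.08 (SD, n = 3; 1.43-fold lower) had an adjusted p of 0.138. Its probe sets were at -0.43 and -0.60 at day 7, but at 0.07 (unadjusted p = 0.632) and -0.31 (unadjusted p = 0.0386) at day 2. Acat1, the acetoacetyl-CoA thiolase, was at -0.93, -0.23 and -0.08 at day 2, at -0.33, -0.32 and 0.15 at day 4, and at -0.25, -0.19 and -0.15 at day 7. It was below 0 in 8 of 9 samples, and its mean over the 3 days was -0.26 (SE 0.09, adjusted p = 0.344).

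**Figure D3:**
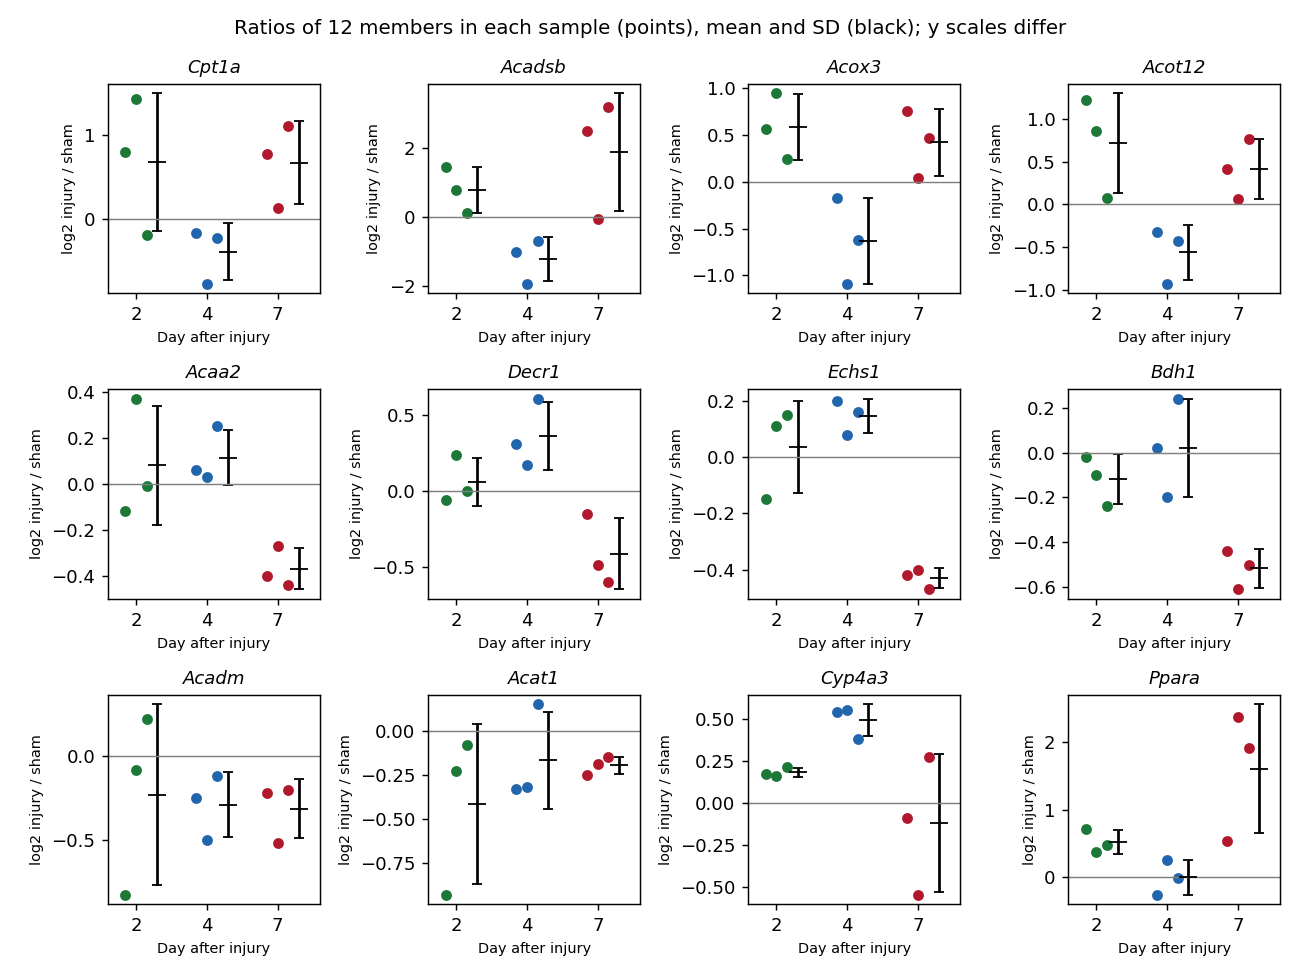
Log2 ratio of injury over sham (vertical axes, with scales that differ) by day after injury for 12 genes, with 3 samples per day as points and the mean and SD in black. The samples of day 4 are the lowest for Acadsb, Acox3 and Acot12, and the samples of day 7 are the lowest for Acaa2, Decr1, Echs1 and Bdh1.

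In the peroxisomal group, Acox3, an oxidase that begins the shortening of branched chains, was at 0.57, 0.95 and 0.25 at day 2, at -0.17, -1.09 and -0.62 at day 4, and at 0.76, 0.04 and 0.47 at day 7. All samples of day 4 were below 0 and all others above 0. The means were 0.59 ± 0.35 (1.51-fold, adjusted p = 0.432), -0.63 ± 0.46 (1.55-fold lower, adjusted p = 0.29) and 0.42 ± 0.36 (SD, n = 3; 1.34-fold, adjusted p = 0.396). Acox2, an oxidase for bile acid intermediates, had day means within 0.14 of 0 and SDs between 0.47 and 0.84. Ehhadh, the peroxisomal bifunctional enzyme of the hydration and dehydrogenation steps and a well-known PPAR-alpha target, was at 0.39, -0.11 and 0.39 at day 4 and at 0.04, -0.77 and -0.44 at day 7. Its day 7 mean was -0.39 ± 0.40 (adjusted p = 0.362). Crot, which moves medium chains onto carnitine for export from peroxisomes, had means of 0.33 ± 0.53, -0.31 ± 0.69 and -0.38 ± 0.28. Its probe sets differed, with day means of 0.64, -0.50 and -0.16 for the brighter one and 0.02, -0.13 and -0.60 for the other. Decr2 and Eci2, the peroxisomal reductase and isomerase for unsaturated chains, stayed within 0.52 of 0 in all samples, and Decr2 was above 0 in all samples of day 4 (0.21, 0.11 and 0.52).

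Among the omega-hydroxylases, Cyp4a3 was at 0.17, 0.16 and 0.21 at day 2, at 0.54, 0.55 and 0.38 at day 4, and at -0.09, -0.55 and 0.27 at day 7. Every sample of day 4 was above every sample of the other days, and the 3 samples of day 2 were close together. The mean was 0.18 ± 0.03 at day 2 (adjusted p = 0.772), 0.49 ± 0.10 at day 4 (1.40-fold, adjusted p = 0.237) and -0.12 ± 0.41 at day 7 (SD, n = 3; adjusted p = 0.764). Cyp4a1 was at 0.26, 0.20 and 0.58 at day 4 and at 0.37, -0.83 and -0.02 at day 7. In sample 2 of day 7 both genes had their lowest value. Cyp4a8 was read by dim probe sets (26.6% of genes were dimmer) and ran from -2.24 to 1.35 within day 7. Genes of this family are close in sequence, and signal shared between them cannot be separated here.

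Of the enzymes that activate or hydrolyse acyl groups, Acot12, the cytosolic acetyl-CoA hydrolase, was at 1.22, 0.86 and 0.08 at day 2, at -0.32, -0.93 and -0.43 at day 4, and at 0.42, 0.06 and 0.77 at day 7. As for Acox3, all samples of day 4 were below 0 and all others above 0. The means were 0.72 ± 0.58 (1.65-fold, adjusted p = 0.323), -0.56 ± 0.32 (1.47-fold lower, adjusted p = 0.374) and 0.42 ± 0.36 (SD, n = 3; adjusted p = 0.448). Acsl1 and Acsl5, which join long-chain fatty acids to coenzyme A, had day means between -0.22 and 0.37. Acsl1 was below 0 in all samples of days 4 and 7. Acot1, a cytosolic thioesterase, was among the dimmest genes (3.1% were dimmer) and ran from -2.64 to 3.00, so its ratios carry little information. Aldh3a2, which oxidises fatty aldehydes, had means of -0.07 ± 0.36, -0.42 ± 0.58 and -0.24 ± 0.12 and a mean over the 3 days of -0.24 (adjusted p = 0.487).

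Of the regulators, Ppara itself was at 0.72, 0.37 and 0.48 at day 2, at -0.26, 0.26 and -0.01 at day 4, and at 0.53, 2.37 and 1.92 at day 7. Samples 2 and 3 of day 7 were the highest, sample 1 of day 7 lay within the range of day 2, and all samples of day 4 were below all others. The mean was 0.53 ± 0.18 at day 2 (adjusted p = 0.789), -0.00 ± 0.26 at day 4 (0.998) and 1.61 ± 0.96 at day 7 (SD, n = 3; 3.04-fold, adjusted p = 0.18). Its recovered injury numbers were 281, 1015 and 713 at day 7 and between 137 and 434 on the other days, while its sham numbers lay between 116 and 313 over all 9 samples. The high ratios of samples 2 and 3 thus came with high injury numbers. Ppara was dim, with 11.8% of genes dimmer. Angptl4, a secreted inhibitor of lipoprotein lipase and a PPAR target, was at -0.73, -0.77 and 0.06 at day 2, at -0.51, -1.34 and 0.96 at day 4, and at 1.13, -0.67 and -0.18 at day 7, with no common sign on any day.

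**Figure D4:**
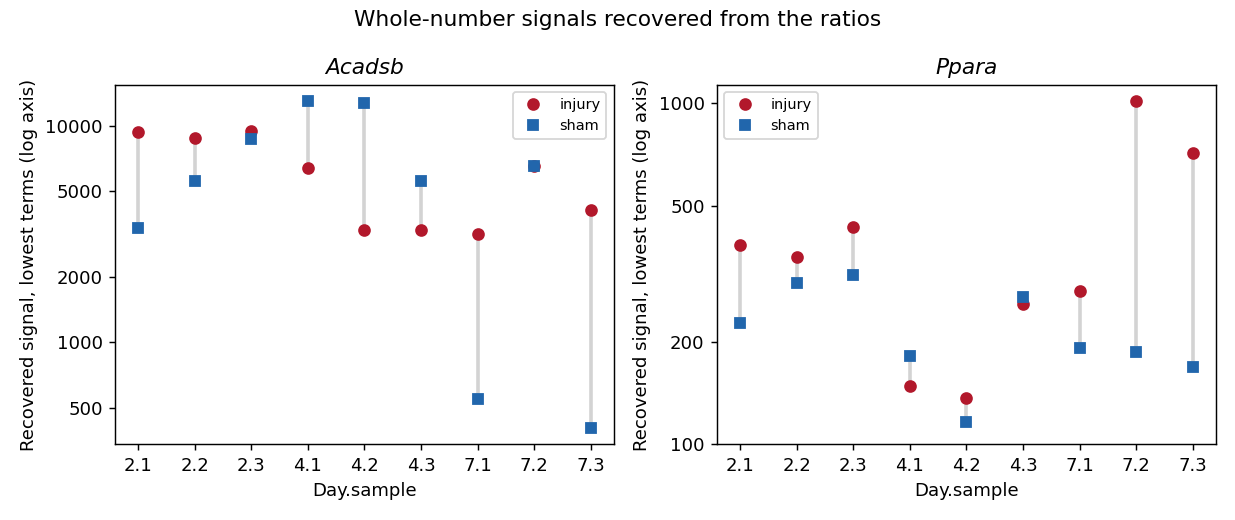
Whole numbers recovered from the ratios of Acadsb and Ppara (vertical axes, log scale, lowest terms) for injury (circles) and sham (squares) in each sample, named by day and sample number. For Acadsb the sham numbers of samples 1 and 3 of day 7 are the lowest, at 550 and 403, and for Ppara the injury numbers of samples 2 and 3 of day 7 are the highest, at 1015 and 713.

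Between days, none of the 33 genes passed in limma for day 4 minus day 2 (0% of all genes passed), day 7 minus day 2 (0%) or day 7 minus day 4 (0.0192%). At an unadjusted p under 0.05, 4 members stood out for day 4 minus day 2 (8.56% of all genes), 4 for day 7 minus day 2 (8.17%) and 11 for day 7 minus day 4 (33.3%, against 13.2% of all genes). In day 4 minus day 2 the 4 were all lower (4.35% of all genes were lower at that p and 4.21% higher). Acox3 was at -1.22 (SE 0.27, adjusted p = 0.286), Acot12 at -1.28 (SE 0.29, adjusted p = 0.286), Acadsb at -2.0 (SE 0.68, adjusted p = 0.45) and Cpt1a at -1.07 (SE 0.37, adjusted p = 0.456). In day 7 minus day 2 the 4 were also all lower (4.74% of all genes, with 3.43% higher), namely Acaa2 (-0.45, SE 0.16), Echs1 (-0.47, SE 0.17), Decr1 (-0.47, SE 0.17) and Bdh1 (-0.40, SE 0.16), with adjusted p between 0.537 and 0.555. Every sample of day 2 was above every sample of day 4 for 4 members (7.03% of all genes), and above every sample of day 7 for the 4 enzymes just named (7.15%). Every sample of day 4 was above every sample of day 2 for 2 members, Acads and Cyp4a3 (7.38%), and no member had every sample of day 7 above every sample of day 2 (5.48%).

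In day 7 minus day 4, 5 members were higher and 6 lower at an unadjusted p under 0.05 (5.27% and 7.89% of all genes). Acadsb had the largest difference, at 3.08 (SE 0.68, adjusted p = 0.0936), and it passed without sample 2 of day 7 (4.05, adjusted p = 0.0181). Cpt1a was at 1.07, Acox3 at 1.05 (SE 0.27, adjusted p = 0.127), Acot12 at 0.97 and Ppara at 1.61. Decr1 was at -0.78 (SE 0.17, adjusted p = 0.0962), Bdh1 at -0.54 (SE 0.16, adjusted p = 0.168), Echs1 at -0.57, Acaa2 at -0.48, Ehhadh at -0.61 and Cyp4a3 at -0.61. All samples of day 7 lay below all samples of day 4 for 7 members (21.2%, against 11.1% of all genes) and above them for 5 (15.2%, against 8.58%). The actin and GAPDH values for RNA integrity were also lower in every sample of day 7 than in every sample of day 4. This difference in RNA balance cannot be told apart from the days in this comparison. The respiratory chain genes had a median difference of -0.58 in this comparison, the cytosolic ribosomal protein genes -0.46 and the 17 mitochondrial members -0.24. At an unadjusted p under 0.05 in limma, 55 of the 84 respiratory chain genes (65.5%) and 23 of the 42 ribosomal protein genes (54.8%) stood out. Both shares were above the 33.3% of the members.

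**Figure D5:**
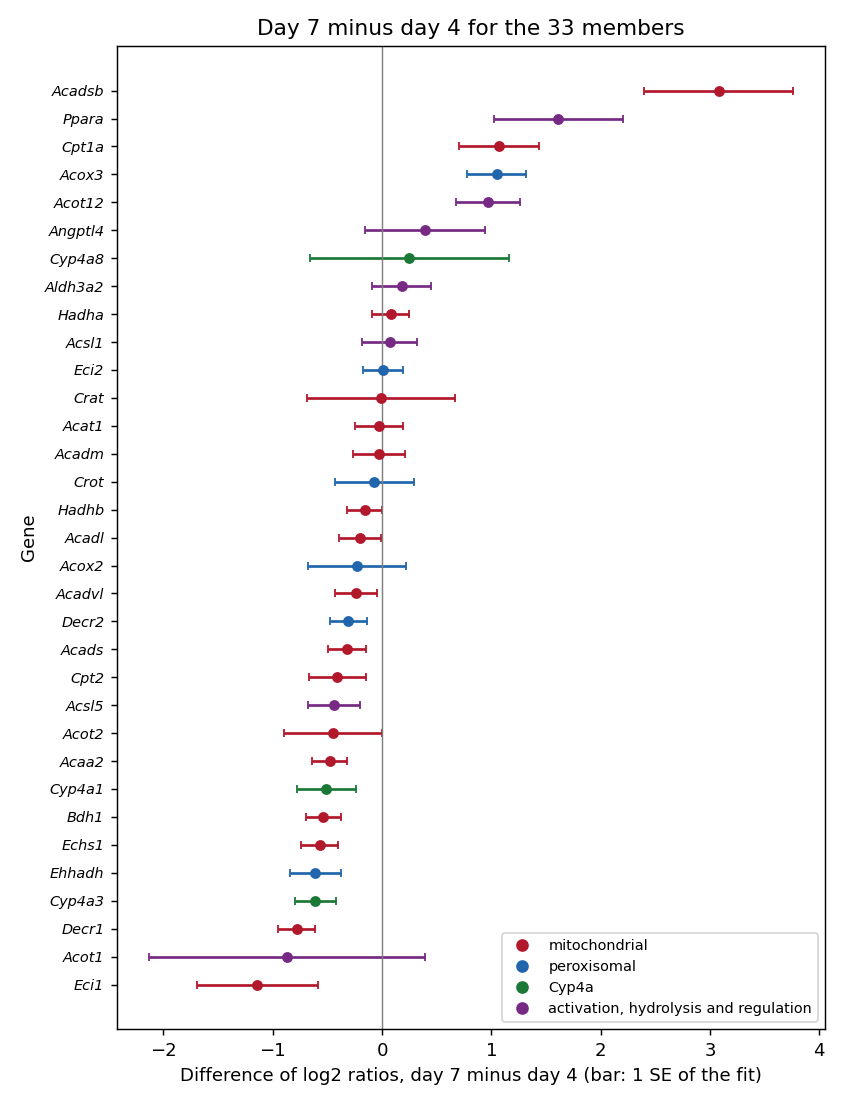
Difference of log2 ratios, day 7 minus day 4 (horizontal axis), for the 33 genes (vertical axis, sorted), coloured by group, with bars of 1 SE of the fit. Acadsb at 3.08 and Ppara at 1.61 lie farthest above 0, and Eci1 at -1.14 lies farthest below. The Eci1 value averages 2 probe sets, of which the brighter was at -0.81.

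Averaged over days 2, 4 and 7, none of the 33 genes passed (limma; 0.298% of all genes did), and 7 had an unadjusted p under 0.05 (10.2% of all genes). Of these, Bdh1 (-0.20, SE 0.06, adjusted p = 0.276), Acat1, Acadm, Cpt2 (-0.25) and Aldh3a2 were lower (5.17% of all genes), and Ppara (0.71, SE 0.24, adjusted p = 0.332) and Cyp4a3 (0.18) were higher (5.01%). No member had the same sign in all 9 samples, as 0.48% of all genes did above 0 and 0.547% below 0.

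The order with day 4 lowest crossed the compartments. Every sample of day 4 was below every sample of days 2 and 7 for Acadsb, Acot12, Acox3 and Ppara, 4 of the 33 genes (12.1%, against 2.8% of all genes). The opposite order was found for 1 member, Cyp4a3 (3.42% of all genes). Cpt1a came close to the order with day 4 lowest, with 1 sample of day 2 within the day 4 range. The Ppara samples of day 4 lay on both sides of 0, at -0.26, 0.26 and -0.01. That gene was therefore low only relative to the other days. Sample 2 of day 4 held the lowest of the 9 values for Acadsb, Acot12, Acox3 and Cpt1a, and for 8 of the 33 genes in all (the share of all genes was not counted). That sample also had the highest exocrine pancreas median, 2.76, against 0.03 and 1.53 in samples 1 and 3 of day 4. A link between them was not tested. The set of genes lowest at day 4 was seen in the data and not fixed beforehand.

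Promoter sequences, from 250 bases before to 50 bases after the start of the gene, were found in RefSeq's GRCr8 table for 29 of the 33 genes. The first 4 shown are those of Acadsb, Acot12, Acox3 and Cpt1a, chosen after their values were seen. They are the 4 of the 8 genes with their lowest value in sample 2 of day 4 that had an unadjusted p under 0.05 in day 4 minus day 2. Echs1 is an enzyme lowest at day 7, and Cyp4a3 was highest at day 4. Capitals mark AGGTCA on either strand (as TGACCT on the other), the half-site that PPAR-alpha and other nuclear receptors bind in pairs.
Acadsb, chr1:195618966-195619265, plus strand: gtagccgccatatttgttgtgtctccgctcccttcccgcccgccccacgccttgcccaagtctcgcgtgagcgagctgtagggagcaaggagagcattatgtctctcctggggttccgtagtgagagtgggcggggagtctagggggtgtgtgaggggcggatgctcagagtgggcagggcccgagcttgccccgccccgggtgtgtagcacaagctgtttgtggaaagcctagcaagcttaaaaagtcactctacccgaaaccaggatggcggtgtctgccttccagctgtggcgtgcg
Acot12, chr2:24721709-24722008, plus strand: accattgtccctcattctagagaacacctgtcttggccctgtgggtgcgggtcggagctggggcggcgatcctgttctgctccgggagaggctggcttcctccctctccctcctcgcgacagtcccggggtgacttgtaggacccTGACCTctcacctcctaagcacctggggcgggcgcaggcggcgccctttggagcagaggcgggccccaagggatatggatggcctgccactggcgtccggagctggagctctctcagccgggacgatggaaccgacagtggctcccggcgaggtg
Acox3, chr14:79400832-79401131, minus strand: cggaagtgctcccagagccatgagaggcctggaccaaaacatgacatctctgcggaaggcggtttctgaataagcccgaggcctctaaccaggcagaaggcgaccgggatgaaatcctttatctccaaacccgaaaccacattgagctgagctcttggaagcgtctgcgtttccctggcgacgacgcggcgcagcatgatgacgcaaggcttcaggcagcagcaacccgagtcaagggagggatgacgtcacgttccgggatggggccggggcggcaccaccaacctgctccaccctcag
Cpt1a, chr1:209995910-209996209, plus strand: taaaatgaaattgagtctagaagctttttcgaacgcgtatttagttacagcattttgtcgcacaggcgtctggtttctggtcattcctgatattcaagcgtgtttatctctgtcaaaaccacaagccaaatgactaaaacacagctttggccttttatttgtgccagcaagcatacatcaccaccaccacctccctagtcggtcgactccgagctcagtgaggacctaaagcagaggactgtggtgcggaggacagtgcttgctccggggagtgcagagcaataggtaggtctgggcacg
Echs1, chr1:204333457-204333756, minus strand: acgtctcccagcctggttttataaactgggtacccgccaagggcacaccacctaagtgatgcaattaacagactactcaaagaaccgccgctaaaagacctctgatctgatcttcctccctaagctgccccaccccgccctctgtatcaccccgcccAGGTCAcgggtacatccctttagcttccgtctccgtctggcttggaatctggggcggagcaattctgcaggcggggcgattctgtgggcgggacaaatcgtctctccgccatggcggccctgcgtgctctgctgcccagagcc
Cyp4a3, chr5:134352187-134352486, minus strand: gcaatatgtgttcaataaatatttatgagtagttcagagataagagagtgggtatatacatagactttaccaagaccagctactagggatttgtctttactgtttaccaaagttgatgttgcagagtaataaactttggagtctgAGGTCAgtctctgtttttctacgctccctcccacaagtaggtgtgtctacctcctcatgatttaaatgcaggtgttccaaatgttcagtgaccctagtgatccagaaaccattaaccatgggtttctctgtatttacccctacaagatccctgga
AGGTCA stood in 7 of the 29 promoters (24.1%), those of Acadvl, Acot12, Cyp4a3, Echs1, Eci1, Eci2 and Hadhb, and in 16.2% of all 33469 promoters of this length. The paired element AGGTCANAGGTCA, which contains that half-site, stood in none of the 29 and in 0.0538% of all, and the looser AGGNCANAGGNCA in none and in 0.415%. Both strands were searched. With paired elements this rare among all promoters, finding none in 29 was likely whatever the genes, so it says nothing about them. Sites outside these windows were not searched. Those first 4 genes shared no AGGTCA match, with 1 half-site in Acot12 and 0 in Acadsb, Acox3 and Cpt1a within these windows. The windows also differed in base composition, with a GC content of 61.7% for Acadsb, 66.7% for Acot12, 60% for Acox3, 48.3% for Cpt1a, 59% for Echs1 and 40% for Cyp4a3.

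Of 83 other genes of fatty acid use and its control, 65 were measured. At day 2, 1 of the 65 passed (0.134% of all genes), at day 4 and day 7 none did, and their medians were 0.00, 0.03 and -0.12. The gene that passed was Prkaa2, a catalytic subunit of the AMP-activated kinase, which promotes fatty acid oxidation when energy is low. It was at -1.03, -1.59 and -0.82 at day 2, at -0.01, -0.16 and -0.58 at day 4, and at -0.30, -0.13 and -0.03 at day 7. It fell at day 2 by 1.14 (SE 0.16, limma adjusted p = 0.0241) and over the mean of days 2, 4 and 7 by 0.52 (adjusted p = 0.0433). The day 2 call ended without sample 1 (adjusted p = 0.119) or sample 2 (0.205) of day 2. It also ended without the variance trend (0.18) and with the sample number as a block (0.0765). The call over the mean ended when any 1 sample other than sample 3 of day 2 was left out (adjusted p between 0.0414 and 0.154 over the 9 such fits). That call also ended without centring (0.0692), without the variance trend (0.208) and with the block (0.0947). The limma fit of all 12 arrays without the trend gave adjusted p of 0.834 and 0.831. It cannot judge either call, because day 1 values under these identifiers stand for other probe sets and enter the spread.

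Acacb, the acetyl-CoA carboxylase whose product malonyl-CoA inhibits Cpt1a, also had its lowest mean at day 4, as Cpt1a did. It was at 1.10, 1.52 and 0.06 at day 2, at -0.82, -0.67 and -1.03 at day 4, and at 0.70, 1.36 and 1.26 at day 7. All samples of day 4 lay below all others, and day 7 minus day 4 was 1.95 (SE 0.38, adjusted p = 0.075). Etfb, which passes electrons from the acyl-CoA dehydrogenases to the respiratory chain, was at 0.20, 0.34 and 0.46 at day 4 and at -0.22, -0.41 and -0.69 at day 7, a difference of -0.78 (SE 0.18, adjusted p = 0.0968). Ech1, another auxiliary enzyme of beta-oxidation, was at 0.62, 0.27 and 0.61 at day 4 (adjusted p = 0.266), and Acsm5, a medium-chain acyl-CoA synthetase, at 0.55, 0.49 and 0.31 (0.269). Hibch, of valine breakdown, had a day 7 minus day 2 difference of -0.86 (adjusted p = 0.47). Ppargc1a, a coactivator of PPAR-alpha, was at 3.56, 4.54 and 1.75 at day 2 (adjusted p = 0.256), but its signal was among the dimmest, with 0.1% of genes dimmer.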

How the data were processed

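The authors' deposited values are log2 ratios of array signals, 1 per probe set and sample. The scaling, software and genome build were not given in the sources used here, nor was the numerator of the ratio. Of 15923 probe sets, 57 controls were left out, and 12783 of the 15866 others had 1 symbol in the platform annotation (312 several, 2771 none). Each array was centred on its median (-0.127 to 0.161 before) and probe sets of a gene were averaged. Signals were recovered as the whole numbers whose log2 quotient is the ratio (tolerance 1e-09, at most 20000). The rank correlation of the recovered sham signals was between 0.635 and 0.7 among arrays of days 2, 4 and 7. With day 1 it was between -0.00463 and 0.0216, so day 1 was left out. The centred log2 ratios, on which the results rest, correlated only between -0.105 and 0.148 among the 9 arrays. The median over 9 arrays of the smaller signal is called brightness.

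The fit used limma 3.58.1 in R 4.3.3 (a mean per day, eBayes with a variance trend on brightness, with 6 residual degrees of freedom), p-values were adjusted by Benjamini-Hochberg over 10411 genes, and the procedure was tested on simulated data. The number of arrays limits the precision. Alternatives changed the variance prior, arrays, unit, centring, filter, weights and replicate block, or left out each sample.

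Members and lists were chosen with earlier results of these data known. All members are named, and those with the 4 smallest p in any of the 7 comparisons are given by sample. Sample numbers were checked for pairing: deviations of same-numbered samples correlated between -0.041 and 0.0682, so they were not treated as pairs.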

Additional observations from a re-analysis of the deposited data

Results flagged for a closer look

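For 8 members every sample of 1 day was above 0 and every sample of another day below 0. The share of all genes with such a change was not counted, so 8 of 33 is not read as a result. All 3 samples of a given day lay on a given side of 0 for between 13.1% and 18.3% of all genes. From day 2 to day 4 the signs went from above to below 0 for Acadsb (difference of the means -2.0), Acot12 (-1.28) and Acox3 (-1.22). From day 4 to day 7 they went from below to above 0 for Acot12 (0.97), Acox3 (1.05) and Cpt1a (1.07), and from above to below 0 for Acaa2 (-0.48), Decr1 (-0.78), Echs1 (-0.57) and Eci1 (-1.14). For Eci1 this held only for the average of its 2 probe sets. The brighter one was at 0.08, -0.64 and -0.18 at day 7, with a difference of -0.81. The differences themselves were tested in limma and none passed. Their lowest adjusted p was 0.0962, for Decr1. Groups of 3 samples are too small for a test of single outlying samples.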

How the results depend on the processing

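For day 2, day 4, the mean of the 3 days, day 4 minus day 2 and day 7 minus day 2, 0 members were called in each alternative that was run. For day 7 and for day 7 minus day 4 the count was 0 in each alternative except without sample 2 of day 7, when 1 member, Acadsb, was called in each (between 0 and 1 when a sample was left out). With the sample number as a replicate block 0 members were called, and the lowest adjusted p of a member was 0.0882. Single members were followed under the alternatives only in comparisons where their p was among the 4 smallest of the members. Of these values, 528 kept their direction and their side of the threshold, none reversed, and 2, those of Acadsb, passed it. They were picked for a small p in the same data, and leaving out a sample of another day does not change a day mean. These counts therefore cannot judge how stable the values are, and the other members were not followed in this way. Without centring, the median of the mitochondrial members at day 7 was -0.103. When single samples were left out, the Cyp4a median was between 0.088 and 0.194 at day 2, between 0.228 and 0.419 at day 4 and between -0.427 and 0.173 at day 7. The mitochondrial median was between -0.066 and 0.092, -0.008 and 0.144, and -0.245 and -0.135 on these days, and the peroxisomal median between 0.083 and 0.225, -0.047 and 0.014, and -0.294 and -0.074. Without centring, the peroxisomal median at day 7 was -0.016. Over all genes, the 14 calls of day 2 became 0 without the variance trend, 4 with the replicate block and 5 with array weights, and the 31 of the mean over days became 4, 21 and 32. Array weights gave 6 calls at day 4, where there were 0. In a fit that used all 12 arrays and also dropped the variance trend (12 arrays were not tried with the trend), day 2 had 0 calls, the mean over days 8, and day 4 and day 4 minus day 2 had 1 each, where there were 0. That fit draws part of its spread from day 1 values that stand for other probe sets, so its counts cannot judge the calls. With the brightest probe set per gene day 2 had 9. The 3 calls of day 7 became 0 without the variance trend and with the block, 1 with 12 arrays and no variance trend, 2 with quantile normalization or a robust prior and 6 over probe sets. Day 4 minus day 2 had 2 with quantile normalization or array weights, where there were 0. The 2 calls of day 7 minus day 4 became 0 without the variance trend on 9 or 12 arrays, with the brightest probe set and with the block, and 1 without centring, with a robust prior or over probe sets. With each sample left out in turn, the calls over all genes were between 0 and 11 at day 2, 0 and 6 at day 4, 0 and 11 at day 7, 5 and 37 for the mean, 0 and 1 for day 4 minus day 2 and day 7 minus day 2, and 0 and 19 for day 7 minus day 4. Without centring, the median of all genes was 0.104 for day 7 minus day 2 and 0.106 for day 7 minus day 4. The replicate block also ended the calls of Prkaa2 at day 2 (adjusted p = 0.0765) and over the mean of the 3 days (0.0947). No detection calls or depth were given, so dim genes such as Acot1, Cyp4a8 and Ppara have ratios with unknown signal over background.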

Other observations

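The samples differed in how they placed these 33 genes. Sample 3 of day 4 held the highest of the 9 values for 11 members and the lowest for 0. Sample 2 of day 4 and sample 2 of day 7 each held the lowest value for 8, and sample 2 of day 7 had 7 of 33 members above 0, against 24 in sample 3 of day 4. Among all genes the number above 0 was 5084 of 10411 in the first of these and 5305 in the second. Lowest and highest values per sample were not counted over all genes, so those counts are not read as a result about the members.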
